A study of Mus musculus with 24 samples.

Results

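Secondary (specific) and tertiary (gelatinase) granule proteins were followed through 10 genes, Ltf, Lcn2, Camp, Ngp, Mmp8, Mmp9, Fcnb, Chil3, Olfm4 and Ceacam10, chosen by symbol and matched by Ensembl identifier. All 10 were found among the 45318 Ensembl gene rows of the deposited table of read counts, of which 24214 had at least 1 count. Neutrophil precursors load proteins into granules in the order in which the genes are switched on: primary granules are filled by promyelocytes, secondary granules by myelocytes and metamyelocytes, and tertiary granules by band cells. The secondary set is a classical readout of granulocytic maturation, and in mice its genes depend on the transcription factor C/EBP epsilon.

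Libraries were made from Lys-GFP-ER-HoxA9 cells, mouse C57Bl/6 myeloid progenitors with a lysozyme-GFP reporter and a HoxA9 protein fused to the oestrogen receptor. In such lines estradiol keeps HoxA9 active and differentiation arrested. All groups were grown with stem cell factor and 0.5 uM estradiol. R07, a compound known here by its code, gave 1 library each at 12, 36, 72 and 120 h; whether those cultures still held estradiol is not in the labels. Estradiol withdrawal gave 2 libraries each at 4, 8, 12, 24, 36, 48, 72, 96 and 120 h, set against 2 libraries at 0 h. The labels do not say whether the line is 1 clone, nor whether the 2 libraries of a time came from separate cultures, so p-values measure only the spread between libraries, which may be technical.

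Gene counts ran from 36.6 M to 49.6 M per library (median 43.7 M), so 1 count was worth about 0.02 CPM, the depth-scaled count used throughout, here on TMM-scaled library sizes. The lowest correlation between the 2 libraries of a time was 0.993 on the log2 scale. The labelled course was checked on marker lists. The summed level of 8 progenitor markers was 418 to 455 CPM at 120 h and 5201 to 5249 CPM at 0 h. Of these 8, 7 were lower at 120 h, against 40.3% of all genes, and 1, Hoxa9, was higher (log2 change 1.09 ± 0.10). The summed level of 8 neutrophil markers was 9785 to 12700 CPM at 120 h and 36.1 CPM in both libraries at 0 h, where Ly6g and Mmp25 had no reads. Monocyte and macrophage markers also moved and are given beside the results below. In RNA from whole cultures, fewer cells of a type and less RNA per cell cannot be told apart.

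The 10 genes lie on 5 chromosomes (mm10). On chromosome 9, Camp (ENSMUSG00000038357.10, chr9:109847379-109849617, minus strand), Ngp (ENSMUSG00000032484.8, chr9:110419747-110423012, plus) and Ltf (ENSMUSG00000032496.4, chr9:111019271-111042767, plus) are spread over about a megabase, with gaps of 570 kb between Camp and Ngp and 596 kb between Ngp and Ltf. Mmp8 (ENSMUSG00000005800.2, chr9:7558456-7568485, plus) is on the same chromosome but about 102 Mb away from Camp, in a cluster of metalloprotease genes. On chromosome 2 are Fcnb (ENSMUSG00000026835.12, chr2:28076378-28084885, minus), Lcn2 (ENSMUSG00000026822.11, chr2:32384633-32388252, minus) and Mmp9 (ENSMUSG00000017737.2, chr2:164940780-164955850, plus). Chil3 (ENSMUSG00000040809.10, chr3:106147554-106167564, minus), Ceacam10 (ENSMUSG00000054169.6, chr7:24777206-24784657, plus) and Olfm4 (ENSMUSG00000022026.6, chr14:79984081-80023139, plus) stand alone. Counts are of reads on annotated genes as a whole.

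Promoter sequence was read for 9 of the 10 genes from RefSeq (GRCm38.p6). Of these, 4 are printed to show courses of 3 kinds: Ltf and Ngp, which were near silent at 0 h and then abundant, Mmp8, which fell before it rose, and Fcnb, an early riser that had dropped by 120 h. Each run is 150 bases upstream of the annotated starts, 5′ to 3′ on the strand of the gene, and capitals mark each 8-base word that fits TTNNGNAA on either strand, the core of C/EBP sites.
Ltf, chr9:111019121-111019270, plus strand: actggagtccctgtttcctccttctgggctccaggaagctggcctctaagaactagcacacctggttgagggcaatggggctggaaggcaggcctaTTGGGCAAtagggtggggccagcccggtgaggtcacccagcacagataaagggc
Ngp, chr9:110419597-110419746, plus strand: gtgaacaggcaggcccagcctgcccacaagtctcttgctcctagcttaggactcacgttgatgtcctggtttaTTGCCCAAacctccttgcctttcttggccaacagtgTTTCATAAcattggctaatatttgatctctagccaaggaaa
Mmp8, chr9:7558279-7558428, plus strand: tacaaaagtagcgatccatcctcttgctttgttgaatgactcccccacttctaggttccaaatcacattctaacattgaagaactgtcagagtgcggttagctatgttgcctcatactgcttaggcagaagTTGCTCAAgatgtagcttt
Fcnb, chr2:28084886-28085035, minus strand: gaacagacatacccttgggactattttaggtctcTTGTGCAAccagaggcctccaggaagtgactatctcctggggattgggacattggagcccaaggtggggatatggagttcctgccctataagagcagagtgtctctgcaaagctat
In the 250 bases before the RefSeq start, TTNNGNAA occurred in 7 of the 9 genes searched, against 36.8% of 32851 promoters of the same length. Ltf held TTGGGCAA on the gene's strand, and Ngp held the same word on both strands. The printed run of Ngp shows the one on the opposite strand, as TTGCCCAA. The other lies between that run and the RefSeq start, which is 62 bases past the end of the run, and so inside the gene coordinates given above. Mmp8 held TTGAGCAA on the opposite strand, and so did Lcn2. GAGGAA, a core of PU.1 and other ETS factor sites, occurred in 5 of the 9 genes against 23.3% of promoters, and TATAAA in 0 of 9 against 12.4%. These are matches of letters, not measured binding.

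As a group, the granule genes were a trace of all gene counts at 0 h and a few percent of them by 96 h. They held 0.00280 and 0.00294% of counts in the 2 libraries at 0 h, 0.00637 and 0.00668% at 24 h, 0.0853 and 0.0606% at 48 h, 1.39 and 1.11% at 72 h, 3.46 and 3.30% at 96 h, and 2.10 and 1.77% at 120 h. The share was highest at 96 h and lower in both libraries at 120 h. Chil3 alone made up 76.0 and 80.4% of the summed CPM of the group at 72 h, but 27.2 and 34.7% at 120 h. Under R07 the group held 0.00404, 0.00785, 0.0218 and 0.0164% of counts at 12, 36, 72 and 120 h.

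**Figure D1:**
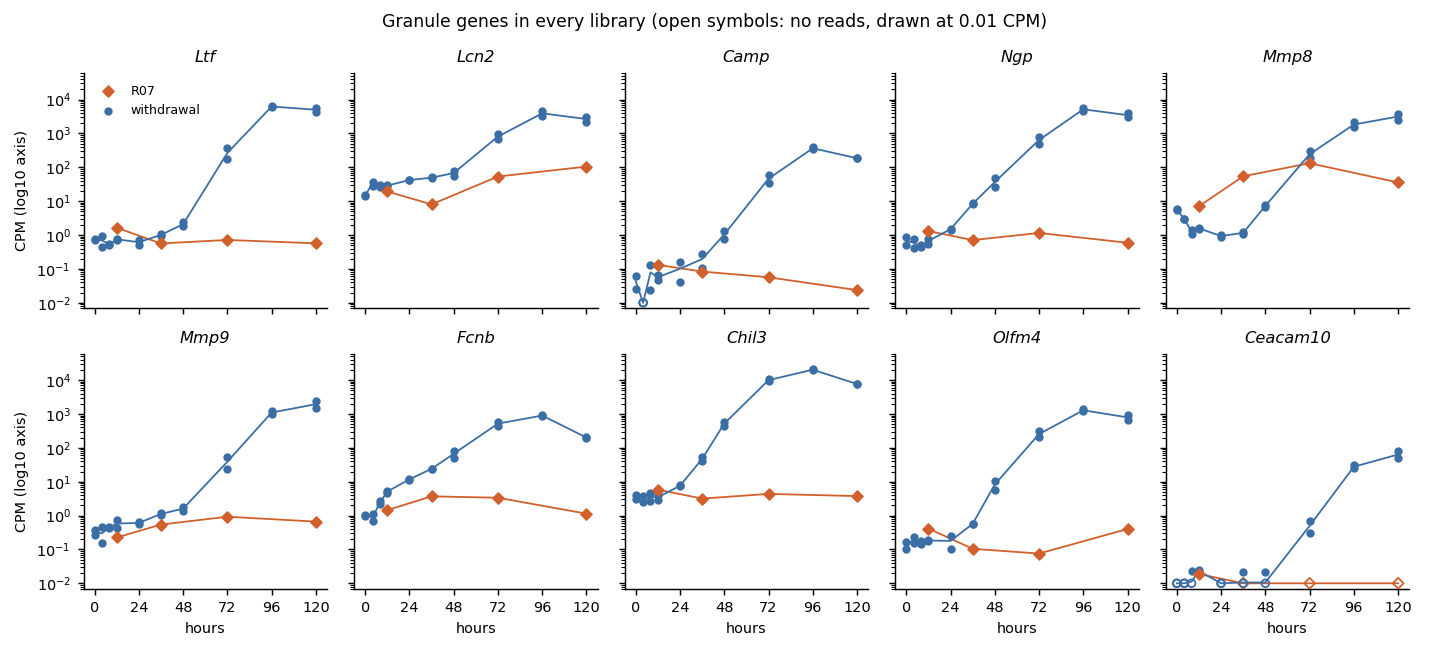
CPM on a log10 axis against hours for the 10 granule genes, with R07 libraries as orange diamonds and withdrawal libraries as blue circles; lines join the means and open symbols mark libraries without reads. All 10 genes are higher in both libraries at 96 h than in both at 48 h of withdrawal, while under R07 Mmp8 and Lcn2 reach 132 and 105 CPM and the other 8 stay under 6 CPM.

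Ltf encodes lactoferrin, the iron-binding protein that gives secondary granules their classical marker. It had 6628 and 5851 CPM at 96 h, then 5737 and 4295 at 120 h, against 0.759 and 0.715 CPM at 0 h. Every library from 72 h on lay above every earlier one, and those up to 36 h all lay between 0.449 and 1.08 CPM. The mean at 96 h was 8468-fold that at 0 h, and the log2 change at 120 h against 0 h was 12.71 ± 0.38 (SE, n = 2 each, adjusted p = 7.25e-17). The call came late: Ltf first passed at 48 h, at 2.37 and 1.82 CPM (log2 change 1.5 ± 0.42, adjusted p = 0.00505).

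Lcn2 encodes lipocalin 2, which binds bacterial siderophores and so withholds iron; it is also an acute-phase gene. Unlike Ltf it was well expressed at the start and rose within hours, to 37.8 and 28.9 CPM at 4 h, against 14.6 and 15.0 CPM at 0 h (log2 change 1.17 ± 0.19, adjusted p = 0.000243). It then had 41.3 and 42.7 CPM at 24 h, 79.0 and 56.5 at 48 h, 938 and 682 at 72 h, and 4484 and 3372 at 96 h. The early gain and the later climb were separate steps, with 25.7 to 37.8 CPM in all libraries from 4 to 12 h. At 120 h it had 3077 and 2242 CPM (log2 change against 0 h 7.47 ± 0.24, adjusted p = 1.4e-16).

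Camp encodes the cathelicidin precursor, cleaved to an antimicrobial peptide, and Ngp encodes a related neutrophilic granule protein. Camp had 1 and 3 reads at 0 h, or 0.0253 and 0.0613 CPM, then 1.29 and 0.783 CPM at 48 h, 57.6 and 34.3 at 72 h, 390 and 341 at 96 h, and 184 and 188 at 120 h. The ratio of the means at 96 h and 0 h was 8442, from only 4 reads at 0 h, so its lower end is poorly fixed. Ngp had 1.52 and 1.45 CPM at 24 h, 8.61 and 8.07 at 36 h, 47.1 and 26.5 at 48 h and 5736 and 4594 at 96 h, against 0.506 and 0.878 CPM at 0 h. Ngp was called at 36 h (log2 change against 0 h 3.55 ± 0.37, adjusted p = 1.37e-07), where Camp, at 0.284 and 0.106 CPM, was not (2.02 ± 1.05, adjusted p = 0.134); the difference between them was not tested. DESeq2 called Camp there (adjusted p = 0.0369), and so did a fit that kept genes of low count (0.0134).

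Mmp8, neutrophil collagenase, was the 1 member that first fell. It had 5.72 and 5.56 CPM at 0 h, 2.96 and 3.0 at 4 h, 1.41 and 1.11 at 8 h, 1.56 and 1.59 at 12 h, 0.897 and 0.975 at 24 h and 1.07 and 1.25 at 36 h. The libraries from 8 to 36 h all lay under 1.6 CPM and did not overlap those at 0 h. The log2 change at 24 h against 0 h was -2.59 ± 0.29 (adjusted p = 6.73e-07). At 4 h it was -0.92 ± 0.24 (adjusted p = 0.0158), a call that was lost when either library at 4 h or at 0 h was left out, with adjusted p from 0.0610 to 0.107. Monocyte and macrophage markers dipped over the same hours: their 14 genes summed to 80.4 and 81.0 CPM at 24 h and to 769 and 819 CPM at 0 h, with Marco at 0 in both. Gene by gene, 3 of the 13 tested were lower at 24 h than at 0 h, 6 were higher and 4 were not called. Of all genes, 14.3% were called lower and 13.5% higher. Their part in the fall of Mmp8 was not tested.

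Mmp8 then climbed to 293 and 192 CPM at 72 h, 2117 and 1559 at 96 h, and 3851 and 2465 at 120 h. At 48 h, with 7.70 and 6.81 CPM, it was back near its 0 h level (log2 change 0.36 ± 0.22, adjusted p = 0.182). Mmp9, gelatinase B and the marker of tertiary granules, had 1.18 and 1.06 CPM at 36 h, 53.6 and 24.4 at 72 h, 1228 and 980 at 96 h, and 2371 and 1520 at 120 h, against 0.379 and 0.266 CPM at 0 h. Both collagenase and gelatinase were highest at the last time sampled. Mmp9 was called at 36 h (log2 change 1.80 ± 0.62, adjusted p = 0.0251), but not when any of the 4 libraries at 36 and 0 h was left out (adjusted p from 0.0532 to 0.148).

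Fcnb encodes ficolin B, a lectin of the complement pathway, and was the steadiest early riser. It had 1.04 and 1.00 CPM at 0 h, 2.64 and 2.19 at 8 h, 4.76 and 5.46 at 12 h, 11.4 and 12.1 at 24 h, 24.2 and 23.9 at 36 h, 82.8 and 50.5 at 48 h, and 591 and 448 at 72 h. The libraries of these times did not overlap. The call at 8 h (log2 change 1.24 ± 0.29, adjusted p = 0.00456) did not hold when 8 h library A (0.0557) or 0 h library B (0.0510) was left out, and the call at 12 h was 2.31 ± 0.26 (adjusted p = 2.18e-06). After 853 and 945 CPM at 96 h it had 193 and 209 CPM at 120 h, below both libraries at 72 h.

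Chil3 encodes the chitinase-like lectin Ym1, which macrophages also make, and had the highest CPM of the 10 from 48 h of withdrawal on. It had 3.11 and 4.04 CPM at 0 h, 7.34 and 7.82 at 24 h, 52.5 and 41.0 at 36 h, 599 and 438 at 48 h, 10786 and 9161 at 72 h, 20927 and 19691 at 96 h, and 7593 and 7754 at 120 h. From 24 h on, each pair of libraries lay above those at 0 h, and the first call was at 24 h (log2 change 1.07 ± 0.24, adjusted p = 0.00163). Chil3 has near-identical neighbours, so reads can be shared or lost; Chil4 averaged 2.13 ± 0.23 CPM at 96 h (SD, n = 2) and had no reads at 0 h.

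Olfm4 encodes olfactomedin 4, held in secondary granules of a subset of neutrophils, and Ceacam10 a secreted member of the carcinoembryonic antigen family. Olfm4 had 0.101 and 0.163 CPM at 0 h, 0.568 and 0.571 at 36 h, 10.8 and 5.81 at 48 h, 308 and 204 at 72 h, 1358 and 1215 at 96 h, and 903 and 685 at 120 h. Its call at 36 h (log2 change 2.04 ± 0.69, adjusted p = 0.0227) was lost when any of the 4 libraries at 36 and 0 h was left out, with adjusted p from 0.0627 to 0.112. Ceacam10 had no reads at 0 h and at most 1 read in any library up to 48 h, then 0.682 and 0.312 CPM at 72 h, 30.3 and 25.1 at 96 h and 78.6 and 48.7 at 120 h. Its level at 120 h was at least 1877-fold higher than at 0 h, taking 3 counts over the 2 libraries at 0 h as the limit that no reads allow. Intervals and limits of this kind cover counting error only.

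Counted against 0 h, 2 of the 10 were called at 4 h (Lcn2 higher, Mmp8 lower), where 11.8% of all 14614 genes tested were called. Shares of all genes count calls in either direction unless a direction is named. At 8 h 3 were called (Lcn2 and Fcnb higher, Mmp8 lower; all genes 21.9%), at 12 h the same 3 (all genes 16%), and at 24 h 4, with Chil3 added as higher (all genes 27.9%). At 36 h 7 were called, 6 of them higher and Mmp8 lower (all genes 40.9%), and at 48 h 8, all of them higher (all genes 52.6%, with 25.8% higher). At 72, 96 and 120 h all 10 were higher, where 69.6, 77.4 and 79.8% of all genes were called, and 34.9, 38.7 and 39.6% were called higher. Over the whole course all 10 changed at some time, as did 91.1% of all genes. In the same fits the median log2 change of the 10 was 8.73 at 72 h, 12.62 at 96 h and 12.06 at 120 h, against 0, -0.02 and -0.06 for all genes. With Ceacam10 at its limit the medians were 8.73, 12.09 and 11.47. Camp, Olfm4 and Ceacam10 had fewer than 10 counts in a 0 h library and passed the low-count filter only through later libraries, whereas the other 7 had at least 10 in both.

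The neighbouring times were compared to place the steps. Between 24 and 36 h, 3 of 10 rose (Fcnb, Ngp and Chil3; all genes 7.16%, with 4.32% higher), and between 36 and 48 h 6 of 10 (Mmp8, Olfm4, Fcnb, Ngp, Camp and Chil3; all genes 12.7%, with 7.73% higher). Olfm4 had the largest of these steps, with a log2 change of 3.85 ± 0.33 at 48 h against 36 h (adjusted p = 1.54e-07). The step of Camp (2.4 ± 0.51, adjusted p = 0.00405) was not called when library A of 48 h (2.01, 0.0671) or library B of 36 h (1.85, 0.0918) was left out. At the same step Lcn2 (0.46 ± 0.18, adjusted p = 0.108) was called without 48 h library B (0.67, 0.0383), and Ltf (1.05 ± 0.39, adjusted p = 0.0846) without either library at 72 h (0.00770 and 0.00773). Between 48 and 72 h all 10 rose (all genes 44%, with 22.2% higher), and between 72 and 96 h all 10 rose again (all genes 53.7%, with 27.2% higher). The log2 change of Ltf was 6.98 ± 0.31 at 72 h against 48 h and 4.55 ± 0.25 at 96 h against 72 h. Those of Fcnb, an early riser, were 2.95 ± 0.17 and 0.79 ± 0.16.

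**Figure D2:**
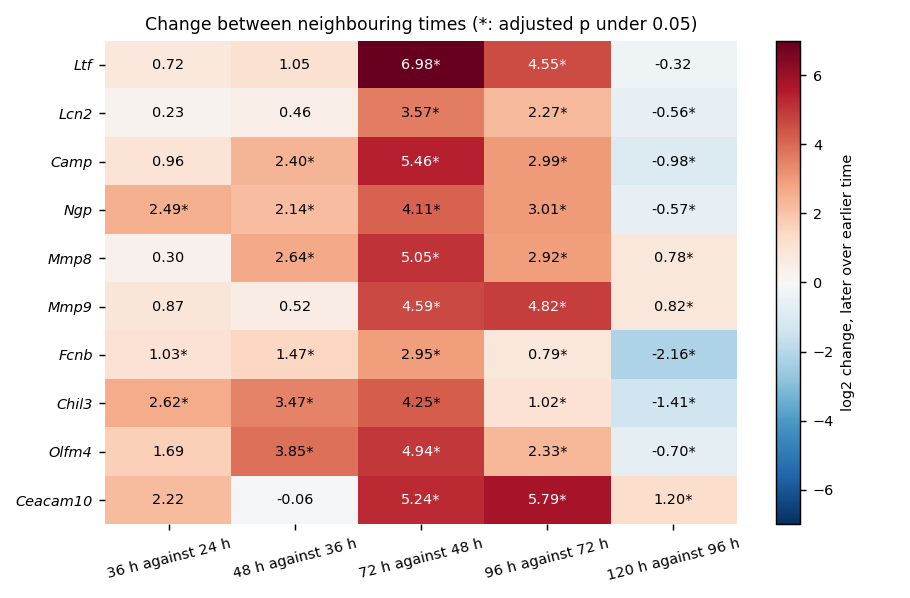
Log2 change of each granule gene between neighbouring withdrawal times, later over earlier, with a star where the adjusted p was under 0.05. The steps to 72 and 96 h are positive for all 10 genes, and the step to 120 h splits them, with Mmp8, Mmp9 and Ceacam10 positive and Fcnb lowest at -2.16.

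The last day split the group. At 120 h against 96 h, 9 of 10 were called (all genes 43.2%, with 21.8% higher and 21.4% lower): Mmp8, Mmp9 and Ceacam10 were higher, and Olfm4, Lcn2, Fcnb, Ngp, Camp and Chil3 were lower. The log2 change was -2.16 ± 0.17 for Fcnb (adjusted p = 1.7e-09), -1.41 ± 0.19 for Chil3 (3.73e-06), -0.98 ± 0.18 for Camp (0.000228) and 1.20 ± 0.20 for Ceacam10 (0.000103). These 4 kept their call whichever library was left out. Ltf was not called (-0.32 ± 0.22, adjusted p = 0.267), except in a fit that kept genes of low count (0.00184).

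The 5 smaller changes rested on single libraries. Mmp8 (0.78 ± 0.18, adjusted p = 0.00144) was not called without 120 h library A (0.42, adjusted p = 0.0770), and Mmp9 (0.82 ± 0.24, 0.00891) neither without that library (0.46, 0.197) nor without 96 h library B (0.66, 0.0857). Lcn2 (-0.56 ± 0.18, adjusted p = 0.0135) was not called without 96 h library A (-0.34, 0.175) or 120 h library B (-0.35, 0.197). Olfm4 (-0.70 ± 0.19, adjusted p = 0.00551) was not called without 120 h library B (-0.51, adjusted p = 0.0928). Ngp (-0.57 ± 0.23, adjusted p = 0.0453) lost its call without any of 7 libraries: 120 h library B (-0.38, adjusted p = 0.308), 96 h library A (-0.41, 0.232), and either library at 8 or 36 h or library A at 24 h (0.0530 to 0.0556), and with RLE size factors (adjusted p = 0.0614). DESeq2 did not call Mmp9, Ngp or Olfm4 (adjusted p = 0.109, 0.142 and 0.135).

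Monocyte and macrophage markers rose over that last day. At 120 h against 96 h, 12 of 13 tested were higher and 1 lower (all genes 43.2%, with 21.8% higher). The 14 markers summed to 6847 and 7115 CPM at 120 h and to 2666 and 4028 CPM at 96 h, with Marco at 0 at both times. C1qa, a complement gene of macrophages, averaged 40.7 ± 2.87 CPM at 120 h and 0.970 ± 0.317 CPM at 96 h (SD, n = 2 each). Summed neutrophil markers were 9785 to 12700 CPM at 120 h and 13009 to 16983 CPM at 96 h, but gene by gene 2 of the 7 tested were higher at 120 h, 1 was lower and 4 were not called, with a median log2 change of 0.30. The part of a changing cell mixture in the split of the granule genes was not tested.

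**Figure D3:**
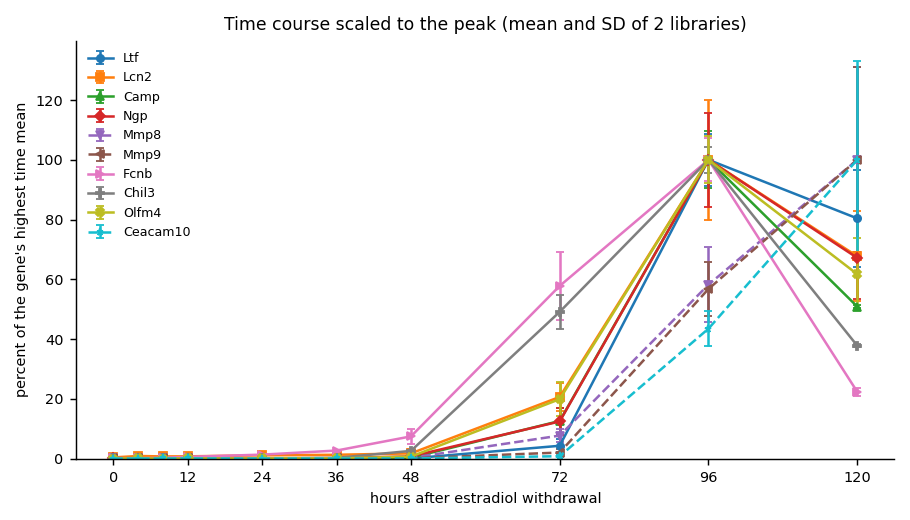
Mean CPM of each granule gene as a percentage of its highest time mean, with the SD of 2 libraries, against hours after withdrawal; dashed lines are Mmp8, Mmp9 and Ceacam10. Fcnb and Chil3 stand at 57.8 and 49.1% at 72 h, and the 3 dashed genes stand at 43.5 to 58.2% at 96 h and peak at 120 h.

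Scaled to its own peak, each gene took a place in an order from early to late. At 72 h Fcnb stood at 57.8% of its peak mean and Chil3 at 49.1%, Lcn2 at 20.6%, Olfm4 at 19.9%, Camp at 12.6% and Ngp at 12.4%. Mmp8 stood at 7.68%, Ltf at 4.27%, Mmp9 at 2.01% and Ceacam10 at 0.781%. At 120 h Ltf was still at 80.4% of its peak and Fcnb at 22.4%. The order at 72 h is a description of 2 libraries per time.

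Levels were compared between genes per kilobase of annotated exon. At 96 h Chil3 led with 12444 ± 536 CPM per kb (SD, n = 2), followed by Ngp with 4227 ± 661, and the libraries of these 2 genes did not overlap each other or those of the next gene. Ltf (1809 ± 159) and Lcn2 (1497 ± 300) overlapped, as did Mmp8 (758 ± 163) with Fcnb (671 ± 48.4) and Camp (482 ± 46.0) with Olfm4 (434 ± 34.0). Mmp9 (312 ± 49.5) and Ceacam10 (18.5 ± 2.46) came last, each apart from its neighbours. By 120 h Fcnb, with 150 ± 8.52 CPM per kb, had dropped to the ninth place, while Mmp8, with 1302 ± 404, overlapped Ltf, with 1454 ± 296.

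**Figure D4:**
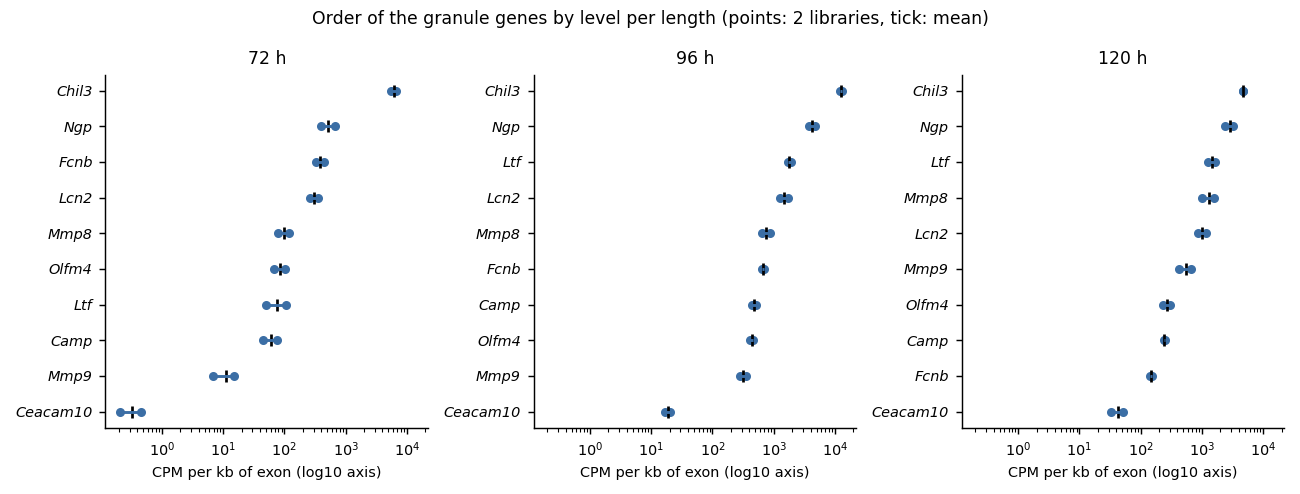
Level of each granule gene per kilobase of exon at 72, 96 and 120 h of withdrawal on a log10 axis, ordered from highest to lowest, with both libraries as points and the mean as a tick. Chil3 and Ngp are first and second at each time; Fcnb moves from the third place at 72 h to the ninth at 120 h.

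R07 was set against withdrawal at the same hours. At 72 h all 10 granule genes were lower in the R07 library than in both withdrawal libraries, and at 120 h again all 10. The share of all genes below both libraries was not counted, so these counts are a description of the members only. Chil3 had 4.36 CPM under R07 at 72 h (95% Poisson interval 3.82 to 4.96), against 10786 and 9161 CPM under withdrawal, and 3.76 CPM at 120 h (3.20 to 4.40), against 7593 and 7754 CPM. Ltf had 0.717 CPM under R07 at 72 h and 0.568 CPM at 120 h, against 362 and 170 CPM at 72 h and 5737 and 4295 CPM at 120 h under withdrawal. At 72 and 120 h the R07 values of both genes were far below withdrawal and close to their own levels at 0 h. At 12 h Ltf had 1.64 CPM and Chil3 5.83 CPM under R07, above both libraries of withdrawal and of 0 h. At 36 h they had 0.564 and 3.17 CPM, below both withdrawal libraries. The 8 neutrophil markers summed to 107 and 80.2 CPM under R07 at 72 and 120 h, with Ly6g, Mmp25 and Retnlg at 0 in both, and the 8 progenitor markers to 5937 and 5854 CPM.

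In the test over 72 and 120 h together, 9 of 10 were lower under R07 (all genes 37.4%, with 17.7% lower), with a median log2 difference of -10.36 for the 10 against 0.08 for all genes. With Ceacam10 at its limit the median was -8.83. Under R07 at 72 and 120 h Camp had 3 and 1 reads, Olfm4 4 and 17, and Ceacam10 0 and 0. These 3 passed the low-count filter through the withdrawal libraries where they were high, so their calls and their share of the count and median are a description; of the other 7 genes, 6 were lower. The log2 difference was -11.06 ± 0.46 for Chil3 (adjusted p = 0.00115), -11.19 ± 0.49 for Olfm4 (0.00146), -7.35 ± 0.26 for Fcnb (0.00091) and -4.26 ± 0.37 for Lcn2 (0.0043). Ltf (-10.26 ± 1.70, adjusted p = 0.0135) lost its call when the withdrawal library A of 72 h (0.0540) or B of 120 h (0.0561) was left out. Mmp9 (-7.40 ± 1.97, adjusted p = 0.0402) lost it without any of the 4 withdrawal libraries, with adjusted p from 0.0545 to 0.105. Ceacam10 had no reads under R07 at 36, 72 or 120 h, and at 120 h it was at least 896-fold lower than under withdrawal, taking 3 counts in the R07 library as the limit.

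Over all 4 times together, 3 of 10 were lower under R07 and 7 were not called (all genes 17%, with 6.52% lower). Differences that grow with time enter the spread of this test. Lcn2 (log2 difference -2.73 ± 0.65, adjusted p = 0.0215) and Fcnb (-4.06 ± 1.07, 0.0313) were called. Ceacam10 was called too (adjusted p = 0.00638), with 1 read in the 4 R07 libraries, having passed the filter through late withdrawal. Without the R07 library at 12 h 7 were called, and without that at 72 h 1, where Lcn2 (adjusted p = 0.0874) and Fcnb (0.0782) were not. Fcnb was also not called without either withdrawal library at 36 or 72 h or without 120 h library B (adjusted p from 0.0519 to 0.0598). At 12 h, 6 of the 10 lay above both withdrawal libraries and 4 below, and the share of all genes in such places was not counted. Among these, Camp lay above on 7 reads under R07 against 3 and 2 under withdrawal. Ceacam10 lay below on 1 read under R07, with 2 reads in the withdrawal libraries together, so its place carries no weight.

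Mmp8 behaved differently under R07. It had 7.09 CPM at 12 h (95% interval 6.39 to 7.84), 54.5 at 36 h (52.4 to 56.6), 132 at 72 h (129 to 135) and 35.8 at 120 h (34.0 to 37.6). Under withdrawal it had 1.56 and 1.59 CPM at 12 h, 1.07 and 1.25 at 36 h, 293 and 192 at 72 h, and 3851 and 2465 at 120 h. Mmp8 was thus 47.0-fold higher than the withdrawal mean at 36 h and 88.3-fold lower at 120 h, with 1 R07 library at each time and no test within a time. Over 72 and 120 h the difference was not called (log2 -2.65 ± 1.54, adjusted p = 0.218). DESeq2 called it lower (adjusted p = 0.0365), as did the fits without the R07 library at 72 h (-6.44, 1.09e-07) or at 120 h (-0.87, 0.0264).

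Against 0 h, none of the 8 granule genes that passed the filter was called in R07 by edgeR, nor any other gene (0% of 13703 genes tested), although 2868 genes had an unadjusted p under 0.05. DESeq2 called 1220 genes, and a fit without the R07 library at 12 h called 2254. Mmp8 had a log2 difference of 3.31 ± 1.03 (adjusted p = 0.158), and was higher in all 4 R07 libraries than in both 0 h libraries. It was the 1 member called by DESeq2 (adjusted p = 0.0339) and without the R07 library at 12 h (log2 3.68, adjusted p = 0.0146). Camp and Ceacam10 were not tested there for low counts.

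Lcn2 also lay away from its 0 h level under R07, though not by a call (log2 difference 1.61 ± 0.91, adjusted p = 0.345). It had 19.3 CPM at 12 h (18.2 to 20.5), 8.04 at 36 h (7.25 to 8.88), 53.5 at 72 h (51.6 to 55.5) and 105 at 120 h (102 to 108), against 14.6 and 15.0 CPM at 0 h. Fcnb reached 3.70 CPM under R07 at 36 h (3.17 to 4.28) and 3.36 at 72 h, with 1.14 at 120 h, against 1.04 and 1.00 CPM at 0 h. Ngp stayed between 0.592 and 1.32 CPM, Mmp9 between 0.226 and 0.925 CPM, Camp between 0.0237 and 0.132 CPM and Olfm4 between 0.0755 and 0.414 CPM in the 4 R07 libraries.

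Mmp8 lies among 10 Mmp genes within 500 kb on chromosome 9, 7 of which never exceeded 0.414 CPM. The other 3, Mmp8, Mmp12 (macrophage elastase, chr9:7344381-7369499) and Mmp13 (collagenase 3, chr9:7272514-7283331), were set side by side. Mmp12 had 2.09, 6.89, 100 and 130 CPM under R07 at 12, 36, 72 and 120 h. Under withdrawal it had 0.0658 and 0.0240 CPM at 12 h, 0.0219 and 0.0211 at 36 h, 0.414 and 0.720 at 72 h, and 102 and 151 at 120 h, and at 0 h 1.82 and 1.57 CPM. Mmp12 was thus above both withdrawal libraries at 12, 36 and 72 h and between them at 120 h, and its log2 difference over the 4 times was 6.01 ± 1.13 (adjusted p = 0.00907).

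Mmp13 had 0.207, 8.41, 14.9 and 10.0 CPM under R07 at 12, 36, 72 and 120 h. Under withdrawal it had no reads in either library at 36 h, 1.12 and 0.816 CPM at 72 h, and 14.1 and 11.9 CPM at 120 h, and at 0 h 0.481 and 0.327 CPM. Its log2 difference over the 4 times was 3.68 ± 1.34 (adjusted p = 0.0889). Like Mmp8, both Mmp12 and Mmp13 were lower at 24 h of withdrawal than at 0 h (log2 change -6.94 ± 0.79 and -4.02 ± 0.76, adjusted p = 7.68e-07 and 0.000424). At 24 h Mmp12 had 0 and 1 reads and Mmp13 had 2 and 0, so the sizes of their falls are poorly fixed. Mmp8 had 39 and 47 reads there. Mmp9, on another chromosome, was not called lower at 24 h (log2 change 0.93 ± 0.70, adjusted p = 0.368) and was not above both withdrawal libraries at any R07 time. Its R07 libraries at 36, 72 and 120 h, at 0.543, 0.925 and 0.663 CPM, lay above both 0 h libraries. Monocyte and macrophage markers summed to 729, 1402, 2011 and 1760 CPM under R07 at 12, 36, 72 and 120 h, against 769 and 819 CPM at 0 h. Marco was at 0 in all 4 R07 libraries and C1qa at 0 to 0.0237 CPM. Gene by gene, 0 of the 9 tested were called in R07 against 0 h (all genes 0%). Over 72 and 120 h, 2 of 13 were higher under R07 than under withdrawal, 6 lower and 5 not called (all genes 37.4%, with 19.7% higher and 17.7% lower). Their part in the gain of Mmp8 was not tested.

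**Figure D5:**
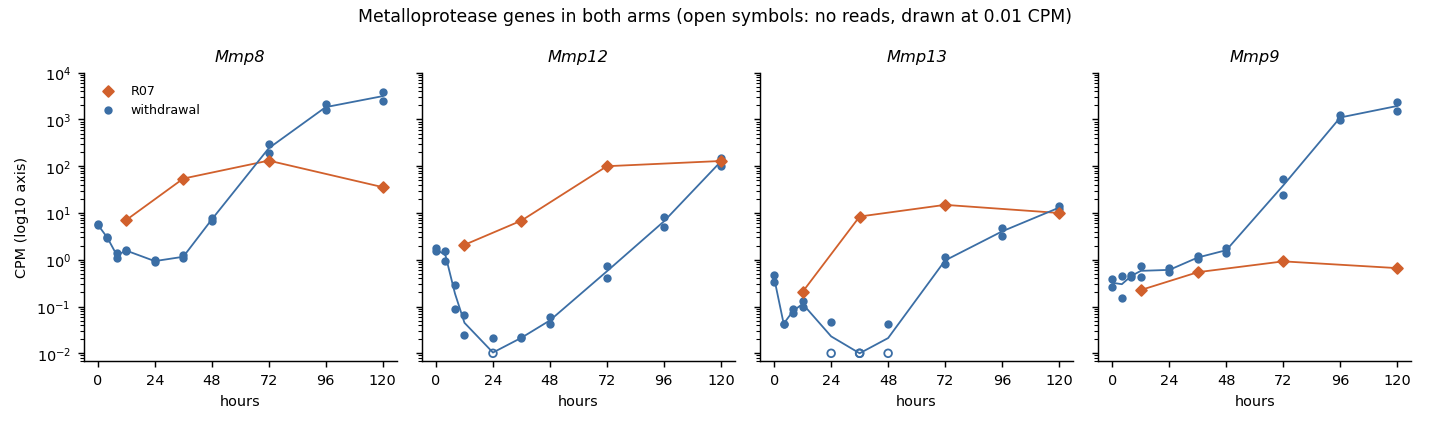
CPM on a log10 axis against hours for the metalloprotease genes Mmp8, Mmp12, Mmp13 and Mmp9, with R07 libraries as orange diamonds and withdrawal libraries as blue circles; open symbols mark libraries without reads. Mmp8, Mmp12 and Mmp13 dip in the first day of withdrawal and are above withdrawal under R07 at 36 h, at 54.5, 6.89 and 8.41 CPM, while Mmp9 stays under 1 CPM under R07.

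Other genes were read from lists set up beside the members. Of 25 further genes of secondary and tertiary granules and their membranes, 22 were tested and all 22 were higher at 120 h than at 0 h (all genes 79.8%, with 39.6% higher), with a median log2 change of 7.12, or 6.17 with the 2 genes without reads at 0 h at their limits. Chil1, a chitinase-like relative of Chil3, averaged 154 ± 47.4 CPM at 120 h and 0.0126 ± 0.0179 CPM at 0 h (SD, n = 2 each). Retnlg, a resistin-like protein of neutrophils, averaged 513 ± 157 CPM at 120 h and 0.0433 ± 0.0255 CPM at 0 h. Chil1, Retnlg and the 2 genes without reads at 0 h passed the low-count filter only through later libraries, so their calls at 120 h are a description. Over 72 and 120 h, 19 of the 22 were lower under R07 and 3 were not called (all genes 37.4%, with 17.7% lower). Of the 22, 2 had no reads under R07 at 72 or 120 h and passed the low-count filter only through withdrawal libraries.

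Primary granule genes took another course. Of 12, 10 were higher at 48 h than at 0 h and none lower (all genes 52.6%, with 25.8% higher). At 120 h 3 were higher, 5 lower and 4 not called (all genes 79.8%), with a median log2 change of -0.28. Mpo, myeloperoxidase, averaged 78.5 ± 22.4 CPM at 120 h and 3852 ± 186 CPM at 0 h, with 10347 ± 391 CPM at 24 h. Ctsg, cathepsin G, had a log2 change of -5.34 ± 0.21 (adjusted p = 2.7e-15). Under R07 Mpo had 3299, 9502, 6584 and 4425 CPM at 12, 36, 72 and 120 h. Over 72 and 120 h, 2 of the 12 were higher under R07, 3 lower and 7 not called (all genes 37.4%). Of the 10 secondary and tertiary genes 9 were lower. That count includes Camp, Olfm4 and Ceacam10, which passed the low-count filter only through withdrawal libraries, so their calls are a description.

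Among 14 transcription factors linked to granule genes, 12 were tested at 120 h against 0 h, with 7 higher, 4 lower and 1 not called (all genes 79.8%). Cebpe, which encodes C/EBP epsilon, averaged 122 ± 3.44 CPM at 24 h, 195 ± 17.4 at 96 h and 107 ± 12.2 at 120 h, against 8.96 ± 0.762 CPM at 0 h (SD, n = 2 each). Its log2 change at 24 h was 3.75 ± 0.16 (adjusted p = 3.55e-13), a time when 3 of the 10 granule genes were higher and Mmp8 lower (all genes 27.9%). Under R07 Cebpe had 6.49, 27.2, 24.4 and 12.5 CPM at 12, 36, 72 and 120 h, and over 72 and 120 h it was lower than under withdrawal (log2 difference -2.94 ± 0.17, adjusted p = 0.00228). Rara, the retinoic acid receptor alpha gene, averaged 36.0 ± 9.17 CPM at 120 h, against 0.807 ± 0.217 CPM at 0 h. Cebpd averaged 57.4 ± 10.1 CPM at 120 h, against 3.41 ± 0.925 CPM at 0 h. Gfi1, a repressor needed for granulopoiesis, fell at 120 h against 0 h (log2 change -3.23 ± 0.15, adjusted p = 6.55e-14), as did Myb (-5.01 ± 0.17, 3.48e-16), and over 72 and 120 h Gfi1 was higher under R07 than under withdrawal (3.18 ± 0.92, adjusted p = 0.0486).

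Late neutrophil genes, a list of 18, were all higher at 120 h than at 0 h (all genes 79.8%, with 39.6% higher), with a median log2 change of 6.16, and Fpr2, a formyl peptide receptor, had the largest (12.76 ± 0.45, adjusted p = 6.55e-16). Fpr2 also binds the human cathelicidin peptide. Of 14 receptors, inhibitors and partners of the granule proteins, 8 were tested, with 3 higher, 3 lower and 2 not called at 120 h (all genes 79.8%). Timp2, a metalloprotease inhibitor, averaged 40.0 ± 10.6 CPM at 120 h and 0.125 ± 0.00275 CPM at 0 h, while Slc22a17, reported as a lipocalin 2 receptor, fell (log2 change -7.48 ± 1.18, adjusted p = 9.04e-06). Slc22a17 had no reads in either library at 120 h, so the size of its fall is poorly fixed. Timp1, the inhibitor best known for Mmp9, averaged 0.0554 ± 0.0783 CPM at 120 h and had no reads at 0 h. Of 18 paralogs of the members, 11 were tested, with 8 higher, 2 lower and 1 not called at 120 h (all genes 79.8%, with 39.6% higher). Of the 11, 2 had no reads at 0 h and passed the low-count filter only through later libraries.

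Eosinophil markers had a course of their own within the window in which Fcnb and Chil3 rose. Their 9 genes summed to 34.0 and 35.4 CPM at 0 h, 600 and 616 at 24 h, 2060 and 2526 at 48 h, 1833 and 2038 at 72 h, and 175 and 197 at 120 h. At 48 h all 8 tested were higher than at 0 h (all genes 52.6%, with 25.8% higher). Of the 8, 3 had no reads at 0 h and passed the low-count filter only through later libraries. Whether cells of that type carried any of the granule transcripts was not tested.

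The members' courses were similar but not the same. Pearson correlations of log2 CPM between pairs of members over the 10 time means ran from 0.746 for Fcnb and Ceacam10 to 0.992 for Camp and Olfm4, as a description in which all pairs share libraries. Among 9573 genes, the 3 most similar to Ltf by the same measure were Fpr2, Stfa3 and Scrg1 (r from 0.998 to 0.999), and for Lcn2 Zfp729a, Aldh3a2 and Gpr141 (0.993 to 0.995). For Camp they were Ipcef1, Ets1 and Mcemp1, and for Ngp Ankrd22, Apbb1ip and Rflnb, all at 0.996 or above. Mmp8 had Itgb2l (0.991) and Cep120 (0.987), and Mmp9 had Fbxl5, Samd8 and Nsd3 (0.996 to 0.999). For Fcnb they were Pde10a, Tagap and Rps6ka1, and for Chil3 Fnip1, Ppp1r42 and Ly6c2 (0.992 to 0.997). Olfm4 had S100a8, Cast and March1, and Ceacam10 had Ifi206, Ifit3 and Retnlg (0.996 to 0.998). None of the genes named here was another member, and by Spearman's rank correlation at most 1 of 3 names was shared, so the names depend on the measure.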

How the data were processed

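RNA was sequenced from 24 libraries, oligo-dT selected and stranded per the labels' protocols. The authors deposited raw counts, whole reads per gene and library with no normalization; STAR 2.4.2a, Picard and mm10 are named in the submitters' processing notes, and the counting program and annotation release are not given in the sources used here. Of the rows, 4 name no gene (multimapping reads 6.23 to 8.72%, outside genes 3.88 to 6.48%, unmapped 1.53 to 2.29% and ambiguous 1.08 to 1.25% of all reads) and 1 carries another identifier; the 4 stayed out of library sizes and tests. Multimapping reads are thus lost to near-identical genes. Symbols and exon lengths came from a GENCODE mouse annotation of mm10, which named 44585 of 45318 rows. The withdrawal columns carry a letter, A or B, in place of the labels' replicate number, and were assigned to time groups only.

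Counts were scaled by TMM and tested with edgeR 4.0.16 quasi-likelihood tests (limma 3.58.1, R 4.3.3) after filterByExpr, with Benjamini-Hochberg adjustment over all genes; genes under an adjusted p of 0.05 were called. Withdrawal was 1 fit over its 20 libraries, each time being a level. R07 was tested as an arm term beside time, or as 1 arm against 0 h. Values are CPM, and errors are the SD over 2 libraries or the SE of a log2 change. Poisson intervals (95%) are exact. Alternatives were RLE factors, no low-count filter, DESeq2 1.42.0, other sets of libraries, leaving out each library, a linear R07 trend and a block on the column letter. The members, lists, tests and alternatives were chosen with earlier results of these data known, and the genes named are all members, the 3 most similar genes of each (1 of those of Mmp8 is not reported here), and the largest changes at 120 h of each list, with others, such as Mmp12 and Mmp13, Cebpe, Timp1, C1qa and Chil4, picked after their values were seen.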

Additional observations from a re-analysis of the deposited data

Results flagged for a closer look

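Both genes below went one way from 0 h under R07 and the other way under withdrawal at the same hour; each R07 value is 1 library, and the difference was not tested. Mmp8 had 7.09 CPM under R07 at 12 h, above both libraries at 0 h (5.72 and 5.56 CPM), and 1.56 and 1.59 CPM under withdrawal, below both. At 36 h Mmp8 had 54.5 CPM under R07, again above 0 h, and 1.07 and 1.25 CPM under withdrawal, below it. Lcn2 at 36 h went the other way round, with 8.04 CPM under R07, below both libraries at 0 h (14.6 and 15.0 CPM), and 48.4 and 50.3 CPM under withdrawal, above them.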

How the results depend on the processing

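Across the alternatives, 3769 of 3862 changes of single genes kept their side of the threshold, 46 lost and 47 gained a call. Of the changes called in the main fit or in the alternative, 0 reversed direction. Direction was not compared where neither fit called the change. Of 414 counts of members called, 401 were within 1.5 times the main count. Without a filter on low counts, 6 members were called at 36 h against 24 h, against 3. For R07 against withdrawal at the same times, 3 became 7 without the 12 h libraries of both arms, 9 as a linear trend over hours and 6 by DESeq2, and leaving out 1 library gave 1 to 7. For R07 against 0 h, 0 became 1 by DESeq2 and 1 without the R07 12 h library (leaving out 1 library, 0 to 1); over all genes 0 calls became 1220 by DESeq2, 31 without a filter and 2254 without that library. Leaving out 1 library gave 1 to 2 at 4 h; the cause of these moves was not tested. Over all genes, the 5245 calls of R07 over 72 and 120 h ran from 1188 (without withdrawal 72 h library A) to 10604 (without R07 72 h) when 1 library was left out, and the 2469 calls of R07 over the 4 times from 1026 (without R07 72 h) to 3988 (without R07 12 h), with 4001 by DESeq2 and 7182 as a trend. Against 0 h, leaving out library B of 0 h gave 815 at 4 h (main 1720), 1494 at 8 h (3201) and 1444 at 12 h (2338), and leaving out library A of 0 h gave 2682 at 24 h (4073). At 36 h against 24 h the lowest was 480 (without 36 h library A, main 1047), and at 48 h against 36 h 556 (without 36 h library B, main 1861).

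The column letters left little shared trace: correlations of the A minus B deviations between times ran from -0.139 to 0.178 over 45 pairs, with 3 over 0.1. Such low values cannot settle whether the letters mark separate series of cultures, which the labels do not say. A replicate block on the letter gave 5 members at 24 h (main 4), 4 at 36 h against 24 h (main 3) and 8 at 48 h against 36 h (main 6), and the same counts elsewhere.

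R07 has 1 library per time, and 2 libraries per withdrawal time limit the early calls of genes with few reads, such as Mmp9, Olfm4 and Camp at 36 h. Ceacam10 had at most 1 read in any library before 72 h.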
